A study of Mus musculus with 34 samples.

Results

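The 78 genes described here encode subunits of the mitochondrial respiratory chain and of ATP synthase that are carried in the nuclear genome, out of 14107 genes in the count table. The rule that defines them uses gene symbols and no measured value, and takes the Nduf subunits of complex I, Sdha to Sdhd of complex II, Cyc1 and the Uqcr genes of complex III, the nuclear Cox subunits of complex IV and the Atp5 genes of complex V. Assembly factors and pseudogenes were left out. Complex I contributed 36 members, complex II 4, complex III 9, complex IV 12 and complex V 17. They are all annotated as protein coding and lie on 19 chromosomes. A further 11 symbols that match the same rule were not among the table's genes, and they include the tissue-restricted isoforms Cox4i2, Cox6a2, Cox7b2, Cox8b and Ndufa4l2.

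The 34 RNA libraries come from NaJa-D, NaJa-F and NaJa-G, which are 3 lines of metastatic colorectal tumour cells from mice, and fall into 12 groups of line, treatment and day. All lines share the C57BL/6N background and the alleles VillinCreERT2, BrafV600E/+, Trp53R172H and APCdel, so DMSO controls carry them too. Cells grew in DMEM with serum and received 0.5 µM encorafenib, a BRAF kinase inhibitor, or the matching amount of DMSO, for 1 day or for 5 days with renewed medium and drug. Each of the 12 groups had 3 libraries, except NaJa-F with encorafenib at day 5 and NaJa-G with DMSO at day 5, which had 2. Per the study's methods each line grew out of the peritoneal lavage of a different recipient of the same donor organoids, in which the Villin-driven Cre had been switched on before transplantation, so a line stands for 1 outgrowth. Nothing in the labels says that replicates came from separate cultures, and p-values then measure the spread between these libraries.

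The respiratory chain sits in the inner mitochondrial membrane. Complex I and complex II pass electrons from NADH and succinate to ubiquinone, complex III passes them on to cytochrome c, and complex IV passes them to oxygen; complexes I, III and IV pump protons, and complex V uses the proton gradient to make ATP. Complex II is the only one whose subunits all come from nuclear genes, whereas the others also contain subunits encoded in mitochondrial DNA, which is copied and transcribed separately. Colonic epithelium relies on this machinery to oxidise short-chain fatty acids.

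The promoters of some members are shown here as examples, and they were not drawn to be typical of all members. Cox6a1 and Atp5j2 were higher in NaJa-D than in the other lines, and Ndufv3 was called higher with encorafenib most often. Ndufs6 fell with time in culture in every line, and Ndufa9 and Ndufa11 rose in NaJa-G at day 1. The share of all matched promoters with each motif follows the sequences. Each sequence runs 5′ to 3′ from 250 bases before the RefSeq transcript start to 50 bases after it, on GRCm38.p6, so its end lies in the first exon of the gene. The windows are chr5:115348909-115349208 on the minus strand for Cox6a1, chr5:145191492-145191791 on the minus strand for Atp5j2, chr17:31519865-31520164 on the plus strand for Ndufv3, chr13:73328433-73328732 on the minus strand for Ndufs6, chr6:126849095-126849394 on the minus strand for Ndufa9 and chr17:56717512-56717811 on the plus strand for Ndufa11. Capitals mark matches to any of the motifs described after the sequences.
Cox6a1: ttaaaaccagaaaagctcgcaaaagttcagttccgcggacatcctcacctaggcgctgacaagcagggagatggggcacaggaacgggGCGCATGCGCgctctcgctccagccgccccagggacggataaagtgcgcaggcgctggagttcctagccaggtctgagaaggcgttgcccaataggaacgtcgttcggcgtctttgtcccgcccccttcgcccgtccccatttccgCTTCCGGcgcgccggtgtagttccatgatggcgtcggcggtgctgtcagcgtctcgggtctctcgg
Atp5j2: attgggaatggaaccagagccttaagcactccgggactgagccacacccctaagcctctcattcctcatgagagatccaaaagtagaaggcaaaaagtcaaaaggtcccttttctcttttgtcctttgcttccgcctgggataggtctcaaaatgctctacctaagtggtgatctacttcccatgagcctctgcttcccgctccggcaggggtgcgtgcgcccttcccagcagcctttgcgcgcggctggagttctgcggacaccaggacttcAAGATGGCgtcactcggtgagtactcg
Ndufv3: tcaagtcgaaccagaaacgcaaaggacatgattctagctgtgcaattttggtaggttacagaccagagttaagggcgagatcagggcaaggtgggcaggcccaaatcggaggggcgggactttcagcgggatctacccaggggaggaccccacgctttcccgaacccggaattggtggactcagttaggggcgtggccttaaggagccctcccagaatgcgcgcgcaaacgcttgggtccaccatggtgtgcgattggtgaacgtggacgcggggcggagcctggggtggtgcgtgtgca
Ndufs6: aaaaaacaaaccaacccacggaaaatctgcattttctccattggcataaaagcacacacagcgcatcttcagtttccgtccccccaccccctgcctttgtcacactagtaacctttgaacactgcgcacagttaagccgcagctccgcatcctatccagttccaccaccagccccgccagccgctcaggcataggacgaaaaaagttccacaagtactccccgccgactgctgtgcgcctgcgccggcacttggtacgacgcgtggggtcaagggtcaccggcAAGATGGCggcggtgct
Ndufa9: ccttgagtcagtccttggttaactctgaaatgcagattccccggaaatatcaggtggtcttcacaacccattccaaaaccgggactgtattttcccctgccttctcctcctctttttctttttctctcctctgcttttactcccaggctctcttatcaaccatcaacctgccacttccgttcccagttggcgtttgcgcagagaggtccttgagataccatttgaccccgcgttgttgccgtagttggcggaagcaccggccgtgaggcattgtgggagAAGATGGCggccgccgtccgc
Ndufa11: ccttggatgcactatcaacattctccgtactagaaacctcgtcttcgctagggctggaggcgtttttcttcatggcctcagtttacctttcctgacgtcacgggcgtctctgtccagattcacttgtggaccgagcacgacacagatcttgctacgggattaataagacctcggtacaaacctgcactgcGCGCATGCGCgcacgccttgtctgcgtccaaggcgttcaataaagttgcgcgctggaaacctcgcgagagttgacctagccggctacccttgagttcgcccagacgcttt

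RefSeq promoters were matched for 65 of the 78 members and for 10354 genes of the table, and both strands were searched for fixed letters. The NRF1 motif GCATGCGC, which is nearly its own reverse complement so that 1 site can match on both strands with an overlap, stood in 15.4% of member promoters (10 of 65) and in 5.31% of all 10354. The YY1 motif AAGATGGC stood in 13.8% (9 of 65) against 4.69%. The ERR motif AAGGTCA stood in 12.3% (8 of 65) against 3.05%. For the ETS motif CCGGAAG the shares were 23.1% (15 of 65) and 18.1%, and for TATAAA they were 7.69% (5 of 65) and 7.09%. Of the 9 YY1 matches, 7 were in complex I promoters (Ndufa3, Ndufa9, Ndufb8, Ndufc1, Ndufs4, Ndufs6 and Ndufs7), each on the plus strand after the transcript start, as in the Ndufs6 and Ndufa9 sequences above, and the others were in Atp5j2 and Atp5f1. Complexes II, III and IV had no YY1 match among their promoters. A match is a description of letters, and binding was not measured.

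Library totals ranged from 46007050 to 80121299 counts. The members took 0.719% to 0.990% of a library's counts, the smallest count of any member in any library was 27 (Cox7a1), and the next lowest was 156 (Atp5s). All 10 epithelial markers checked were measured, among them Epcam at 65.1 to 1177 CPM (counts scaled to library size by TMM factors) and Krt8 at 623 to 2506 CPM. They moved with the drug in both directions, with 5 called higher and 3 lower in NaJa-D at day 1 (Lgals4 3.94, Krt19 1.01, Cdx2 -0.66 and Cdh17 -3.24 on the log2 scale), 5 and 3 in NaJa-G at day 1 and 2 and 4 in NaJa-G at day 5. Between lines, NaJa-G had 8 of them called below NaJa-D and none above. Vil1, which drives the Cre, was at 0.285 to 14.0 CPM. Of 5 mesenchymal markers, NaJa-G had 4 called above NaJa-D in DMSO, among them Vim, at 36.0 to 127 CPM in NaJa-D and 1834 to 2930 CPM in NaJa-G. The exception was Fn1, called lower (-1.31), which holds most of the list's summed level, at 14212 ± 762 CPM in NaJa-D and 7143 ± 601 CPM in NaJa-G at day 1 (SD, n = 3 each). Vim was called lower with encorafenib at day 1 in NaJa-D (-1.50). Of 8 immune markers 3 were measured, Cd14 at 15.6 to 41.0 CPM, Cd68 at 3.32 to 7.26 CPM and Csf1r at 0.0998 to 4.30 CPM, and Csf1r was called higher with encorafenib in all 6 comparisons (1.92 to 3.01). Ptprc, Cd3e, Adgre1, Cd79a and Itgam and 5 of 6 endothelial markers were not among the table's genes. Of 9 fibroblast and mesothelial markers, 7 were measured, with Msln at 496 to 3514 CPM, and with encorafenib NaJa-D had 3 of them called higher at day 1, NaJa-F 4 and NaJa-G 5, and at day 5 the counts were 4, 4 and 7. Their summed level was 1238 to 1515 CPM in NaJa-D DMSO and 2607 to 3523 CPM with encorafenib at day 1, and 512 to 582 CPM and 1637 to 1862 CPM in NaJa-G at day 5. The part of all these markers in the results for the members was not tested.

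Some libraries stood apart. The library titled as replicate 3 of NaJa-D DMSO day 1 has a cell line field that names NaJa-G; its log2 CPM correlated at 0.995 with the other NaJa-D libraries of its group and at 0.919 with those of NaJa-G, and it was kept as NaJa-D. NaJa-D encorafenib day 1 replicate 3 had a summed member level of 9415 CPM, against 7383 and 7630 CPM in its group. NaJa-D DMSO day 5 replicate 1, NaJa-D encorafenib day 5 replicate 2 and NaJa-F encorafenib day 5 replicate 2 stood above their groups in Cox5a and Cox8a. Counts are therefore also given without the last 4 of these libraries, a choice made after seeing the data and in part from the members' own levels. Among the NaJa-G controls, day 1 replicate 1 had a summed member level of 10383 CPM, against 8945 and 8976 CPM in its group, and the 2 day 5 libraries had 7935 and 8945 CPM.

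Member levels covered a wide range. Per kilobase of exon, the highest mean levels over all libraries were 428 CPM per kb for Cox6a1 (a complex IV subunit), 306 for Atp5b and 267 for Atp5a1 (the catalytic beta and the alpha subunit of ATP synthase), 209 for Cox8a and 181 for Cox4i1. The lowest were 0.721 CPM per kb for Ndufb2, 1.66 for Cox7a1, the isoform best known from heart and skeletal muscle, and 2.85 for Atp5s, coupling factor s. The median level was 32.3 CPM per kb in complex I, 46.8 in complex II, 56.9 in complex III, 71.9 in complex IV and 51.7 in complex V, against 5.27 over all genes. The order depends on which length is used: with the median length of coding transcripts, Atp5b came first at 676 CPM per kb, followed by Cox6a1 at 527 and Uqcrc1 at 437. Member levels varied little between the 12 groups, with a median standard deviation of group means of 0.228 on the log2 scale, against 0.375 over all genes. Since 35 members share at least 100 bases at 95% identity or more with another annotated gene, 20 of them with a pseudogene, their counts can include or lose reads of that copy. Ndufc1 matched 25 such genes, Atp5g1 12 and Atp5l 11. The median log2 fold change was -0.23 in these 35 and -0.19 in the other 43 with encorafenib in NaJa-D at day 1, and 0.15 and 0.07 for NaJa-G against NaJa-D in DMSO. For NaJa-F against NaJa-D it was -0.04 and 0.02, with 9 higher and 4 lower calls in the 35 and 9 and 12 in the 43.

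**Figure D1:**
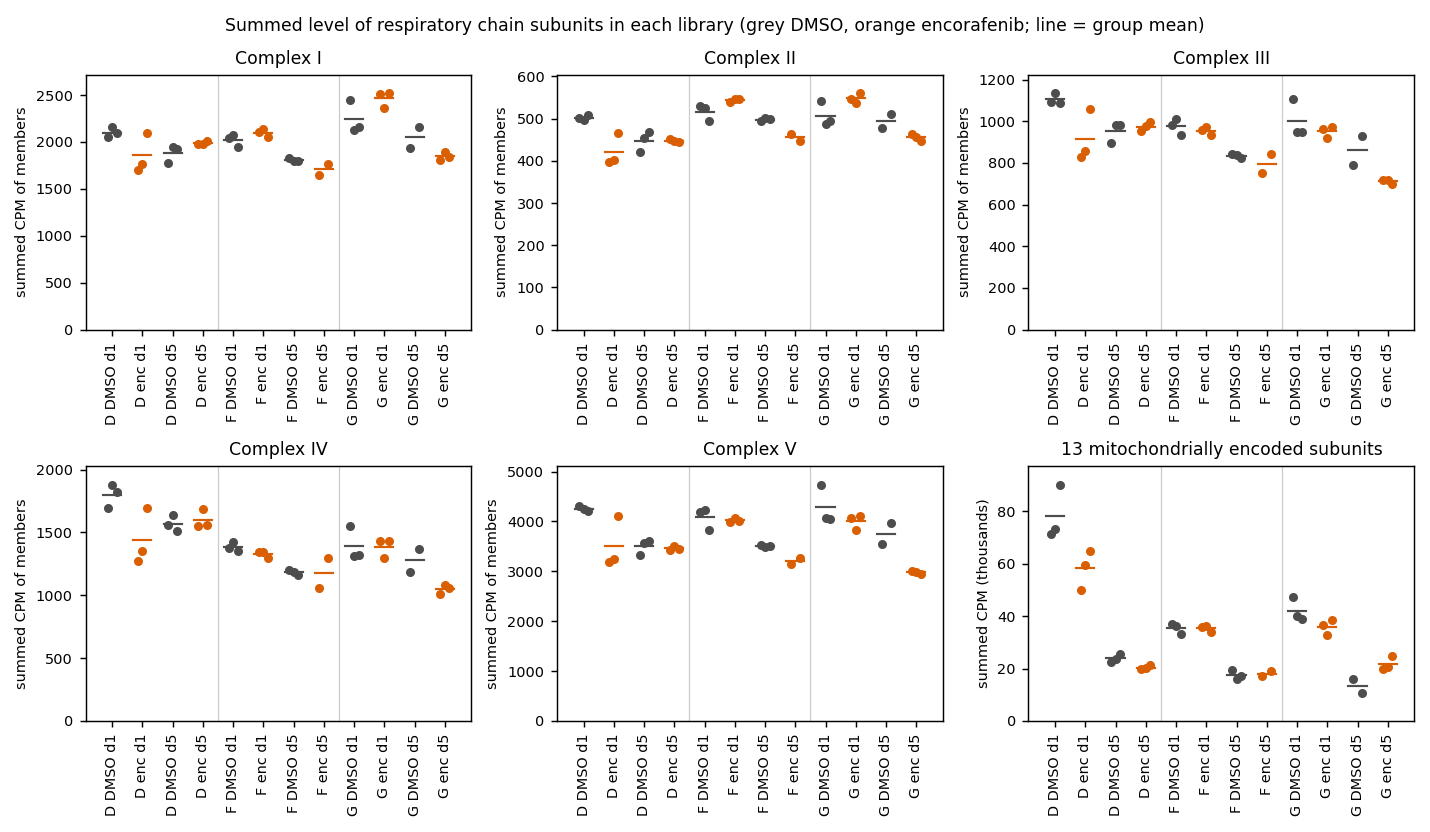
Summed CPM of the members of each complex (y axis) in each library (points), by line, treatment and day (x axis), with grey for DMSO, orange for encorafenib and a line at the group mean; the last panel gives the 13 mitochondrially encoded subunits. The 3 libraries of NaJa-G with encorafenib at day 5 have the lowest sums for complexes III and V, and 1 of the 3 libraries of NaJa-D with encorafenib at day 1 sits near the DMSO level.

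The first question was how a day of BRAF inhibition moved these transcripts. In NaJa-D most members were lower with encorafenib at day 1: 30 of 78 were called lower and 2 higher at a Benjamini-Hochberg adjusted p below 0.01 in limma, where 21.2% of all genes were called lower and 23.7% higher. The median log2 fold change was -0.20, against 0.04 over all genes, and 68 of 78 estimates were negative. The summed member level was 9761 ± 150 CPM in DMSO and 8143 ± 1108 CPM with encorafenib (SD, n = 3 each). In bulk RNA, fewer cells that express a gene and less of its RNA per cell cannot be told apart.

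The lower calls in NaJa-D came from every complex: 11 of 36 in complex I, 2 of 4 in complex II, 5 of 9 in complex III, 5 of 12 in complex IV and 7 of 17 in complex V. Cox4i1, the ubiquitous isoform of complex IV subunit 4, was at 365, 409 and 411 CPM in DMSO and at 251, 275 and 331 CPM with encorafenib. The groups did not overlap, and the log2 fold change was -0.47 ± 0.09 (SE, adjusted p = 4.6e-05, limma). Atp5a1 was at 1003, 985 and 984 CPM in DMSO and at 652, 674 and 876 CPM with encorafenib. All DMSO libraries were above all treated ones (-0.44 ± 0.08, adjusted p = 2.3e-05, limma). Ndufa5, a supernumerary subunit of complex I, was at 24.3, 23.5 and 25.6 CPM in DMSO and at 16.3, 17.3 and 21.2 CPM with encorafenib, again without overlap (-0.44 ± 0.09, adjusted p = 0.00019, limma).

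Sdha, the flavoprotein of complex II, fell from 243, 254 and 266 CPM to 193, 200 and 215 CPM without overlap (-0.33 ± 0.04, adjusted p = 1.7e-07, limma). The only members called higher were Ndufv3, a small supernumerary subunit of the NADH-oxidising end of complex I, and Atp5s. Ndufv3 rose from 25.9, 26.0 and 23.8 CPM to 30.7, 30.1 and 37.8 CPM, and Atp5s from 4.25, 3.96 and 3.78 CPM to 7.39, 7.02 and 5.62 CPM. Neither pair of groups overlapped (0.37 ± 0.08, adjusted p = 0.00051, and 0.74 ± 0.11, adjusted p = 3.7e-06, limma).

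The size of the NaJa-D decrease depended on which treated libraries were kept. In replicate 3 of them most members were nearer to DMSO. Without NaJa-D encorafenib day 1 replicate 3, 56 members were called, 55 of them lower; without replicate 1 or replicate 2 of the same group, 17 and 19 were called. Without all 4 libraries set apart, 57 were called (55 lower, 2 higher), among them all 32 of the fit on every library, and the median was -0.29. A fit on these 6 libraries alone, with no spread shared from other groups, called 6 members, 5 of them lower. After removal of a trend in GC content and exon length, 20 were called, 17 of them lower.

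In NaJa-G the same treatment gave calls mostly in the other direction: 20 members were higher and 5 lower, where 35.3% of all genes were called higher and 28.7% lower. Members were thus called less often than genes in general in both directions. The median log2 fold change was 0.08, against 0.04 over all genes. Complex I supplied 11 of the higher calls and none of the lower, of which 10 were among its 29 supernumerary subunits (median 0.19) and 1, Ndufs8, among its 7 core subunits (median 0.00). Complex II had 2 higher calls, complex IV 3 higher and 2 lower, complex V 4 higher and 2 lower, and complex III only 1 call, which was lower.

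Ndufv3 rose furthest among members above 2 log2 CPM in NaJa-G, from 38.6, 32.1 and 32.6 CPM in DMSO to 64.2, 56.9 and 61.2 CPM with encorafenib (0.82 ± 0.07, adjusted p = 7.4e-11, limma). Atp5e, the epsilon subunit of ATP synthase, rose from 62.1, 51.8 and 52.6 CPM to 81.0, 77.4 and 86.9 CPM (0.56 ± 0.09, adjusted p = 5.2e-06, limma). Sdhc, a membrane anchor of complex II, rose from 73.8, 63.5 and 63.5 CPM to 100, 92.4 and 99.1 CPM (0.54 ± 0.08, adjusted p = 1.5e-06, limma). In each of these the treated libraries all lay above the DMSO libraries. Ndufa11 (0.45), Ndufa13 (0.49), Ndufb4 (0.53) and Ndufc1 (0.53) were other complex I members called higher.

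The 5 members called lower in NaJa-G at day 1 were Cyc1, Atp5a1, Atp5g3, Cox7b and Cox7c, and each of these was also among the 30 lower calls of NaJa-D. Cyc1, the heme-carrying cytochrome c1 of complex III, was at 178, 148 and 155 CPM in DMSO and at 117, 115 and 118 CPM with encorafenib, without overlap (-0.45 ± 0.08, adjusted p = 4.8e-06, limma). Atp5a1 fell from 1148, 963 and 954 CPM to 815, 790 and 838 CPM (-0.32 ± 0.08, adjusted p = 0.00076, limma). A single member, Ndufa2, was called lower in NaJa-D (-0.29) and higher in NaJa-G (0.28). After removal of a trend in GC content and exon length, the NaJa-D estimate of Ndufa2 turned positive. Without the DMSO day 1 replicate 1 of NaJa-G, 28 members were called (26 higher, 2 lower). Without replicate 2 of that group, 16 members were called (12 higher, 4 lower), the fit on these groups alone called 16 (11 higher, 5 lower), and scaling by library size alone gave 16 higher and 8 lower.

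NaJa-F had the fewest member calls at day 1, with 3 members called higher and none lower, where 17.5% of all genes were called higher and 12% lower. The median was 0.04. Ndufv3 was at 32.9, 31.4 and 29.8 CPM in DMSO and at 41.8, 41.0 and 38.9 CPM with encorafenib (0.37 ± 0.08, adjusted p = 0.00025, limma). Atp5s was at 4.49, 4.23 and 4.66 CPM and at 6.18, 6.37 and 6.54 CPM (0.51 ± 0.10, adjusted p = 0.00012, limma). In both, all treated libraries were above all DMSO libraries. The remaining call was Cox7a1, a low gene at 0.635, 0.401 and 0.532 CPM in DMSO and 0.836, 0.780 and 0.894 CPM with encorafenib (0.70 ± 0.18, adjusted p = 0.0029, limma); in NaJa-G it rose from 0.484, 0.643 and 0.549 CPM to 1.54, 1.44 and 1.54 CPM (1.42 ± 0.16, adjusted p = 1e-08, limma).

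**Figure D2:**
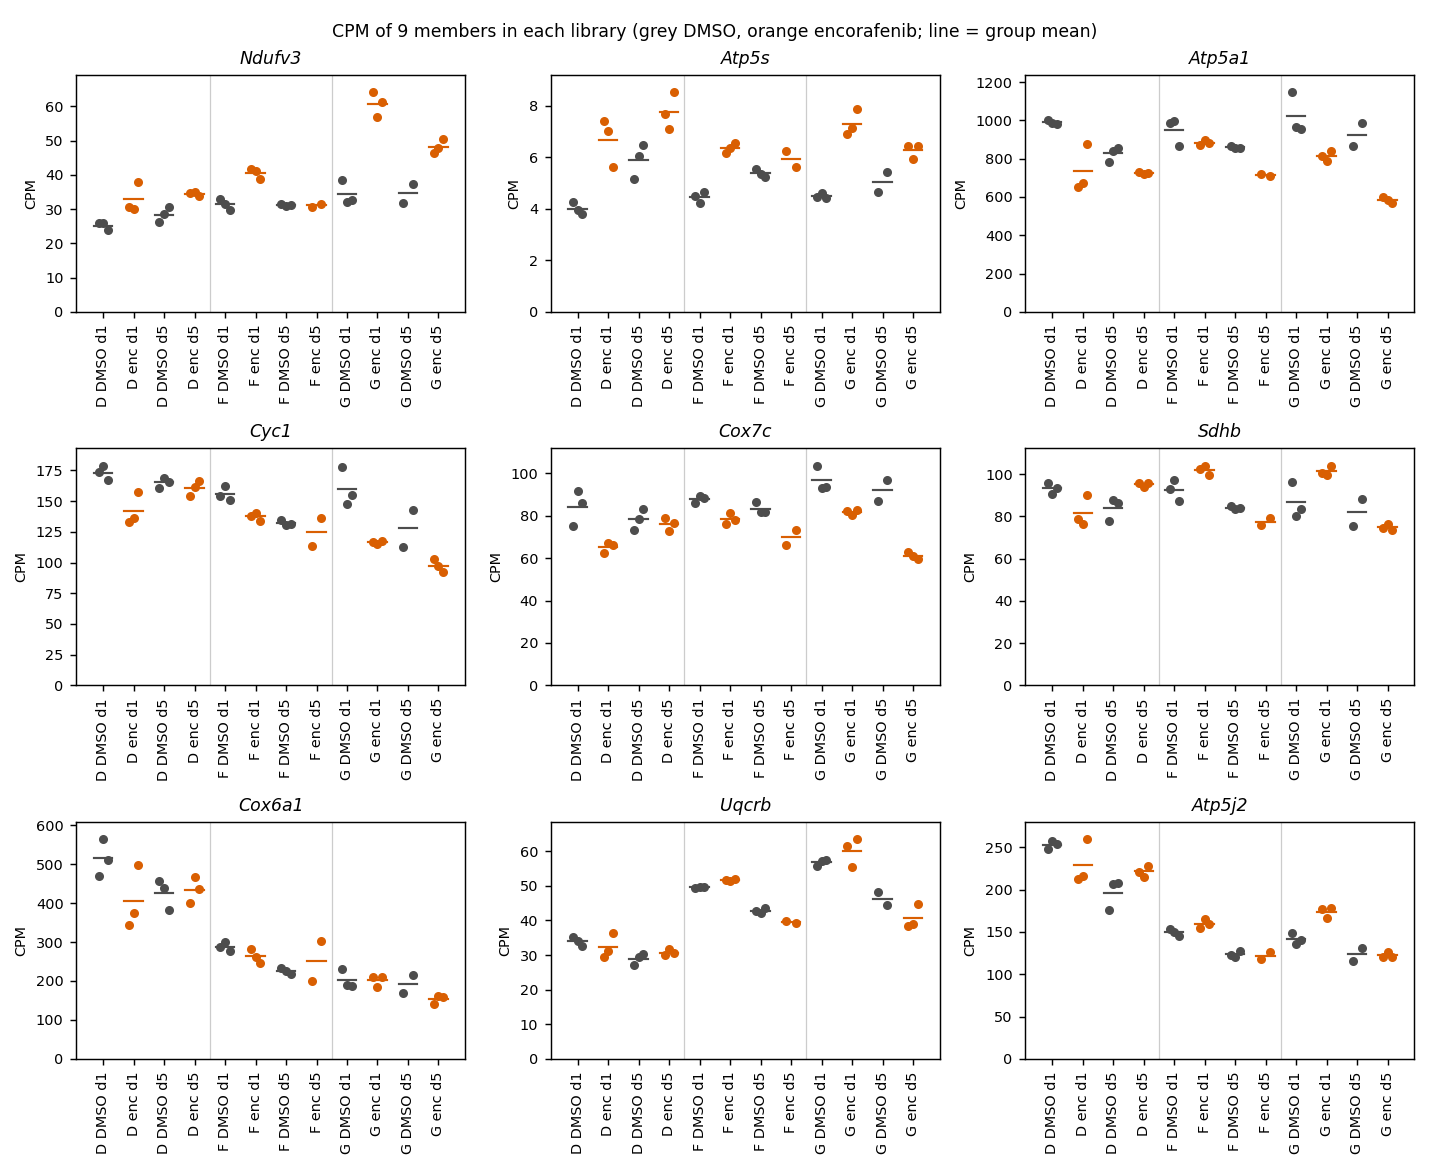
CPM (y axis) of 9 members in each library (points), by line, treatment and day (x axis), with grey for DMSO, orange for encorafenib and a line at the group mean. Ndufv3 and Atp5s are higher with encorafenib at day 1 in all 3 lines, while Cox6a1, Uqcrb and Atp5j2 differ between lines in either treatment.

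The drug was renewed for the later time point. In NaJa-D at day 5, 3 members were called higher (Ndufa11, Ndufv3 and Atp5s) and none lower, where 18.3% of all genes were called higher and 14.7% lower, and the median was 0.07. Ndufa11 rose from 28.2, 32.7 and 34.9 CPM to 40.0, 39.5 and 44.0 CPM, without overlap (0.37 ± 0.10, adjusted p = 0.0028, limma). Without NaJa-D DMSO day 5 replicate 1 no member was called, without NaJa-D encorafenib day 5 replicate 3 there was 1 call, without the 4 libraries set apart 1, and after removal of the GC and length trend there were 3 higher and 2 lower. Scaling by library size gave 6 higher and 1 lower.

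In NaJa-G at day 5, 20 members were called lower and 2 higher, where 24.7% of all genes were called lower and 28.5% higher. The share of members called lower was near that of all genes, and the share called higher was below it. The median was -0.15, against 0.01 over all genes. Complex III had 4 lower calls of 9 and a median of -0.28, complex IV 4 of 12 and -0.31, complex V 6 of 17 and -0.14, complex II 1 of 4 and -0.11, and complex I 5 of 36 with a median of -0.14. Within complex I, all 7 core subunits had negative estimates (median -0.27, 3 called, with Ndufs1 and Ndufv2 among them). The summed member level was 8440 ± 714 CPM in DMSO (SD, n = 2) and 7048 ± 83 CPM with encorafenib (SD, n = 3).

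Atp5a1 fell furthest at that time, from 867 and 985 CPM in DMSO to 602, 585 and 569 CPM with encorafenib (-0.66 ± 0.09, adjusted p = 2.4e-07, limma). Cox7c, a small complex IV subunit, fell from 87.1 and 96.8 CPM to 62.8, 60.9 and 59.4 CPM (-0.59 ± 0.07, adjusted p = 2e-08, limma). Cox8a fell from 113 and 147 CPM to 81.5, 94.8 and 89.5 CPM (-0.54 ± 0.18, adjusted p = 0.0089, limma). None of these groups overlapped. The 2 members called higher were Ndufv3, from 31.8 and 37.4 CPM to 46.5, 47.9 and 50.4 CPM (0.48 ± 0.08, adjusted p = 1.5e-05, limma), and Ndufb4, from 7.89 and 8.77 CPM to 10.4, 11.9 and 11.9 CPM (0.45 ± 0.10, adjusted p = 0.0002, limma).

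All 5 members lower in NaJa-G at day 1 were also lower at day 5, a comparison with other control libraries of the same line. None of the 20 members higher at day 1 was lower at day 5. Of the 30 members lower in NaJa-D at day 1 and the 20 lower in NaJa-G at day 5, 16 were shared, 53.3% of the first list and 80% of the second; they include Atp5b, Atp5c1, Cox7a2, Sdhd, Uqcrc1, Uqcrc2 and Uqcrh. The NaJa-G count was 14 (3 higher, 11 lower) without NaJa-G DMSO day 5 replicate 3, 24 (3 higher, 21 lower) without replicate 1 of that group, 34 without the 4 libraries set apart, which are of other lines and alter only the shared spread, and 8 higher against 13 lower after removal of the GC and length trend.

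In NaJa-F at day 5, 2 members were called lower and none higher, where 8.5% of all genes were called lower and 9.7% higher. They were Cox7c, from 86.6, 81.6 and 81.7 CPM to 66.4 and 73.2 CPM (-0.26 ± 0.07, adjusted p = 0.0055, limma), and Sdha, from 236, 243 and 236 CPM to 218 and 202 CPM (-0.18 ± 0.05, adjusted p = 0.0042, limma). In both the treated libraries were below all DMSO libraries. The count was 1 without NaJa-F DMSO day 5 replicate 1 or replicate 2, and 0 with RLE factors in place of TMM factors.

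Across the encorafenib comparisons, no member was called in all 6. Ndufv3 was called higher in 5 and Cox7c lower in 4. In the comparison without a call for Ndufv3, NaJa-F at day 5, it was at 31.6, 31.0 and 31.2 CPM in DMSO and 30.6 and 31.6 CPM with encorafenib. Those libraries overlapped (-0.01 ± 0.09, adjusted p = 0.97, limma).

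**Figure D3:**
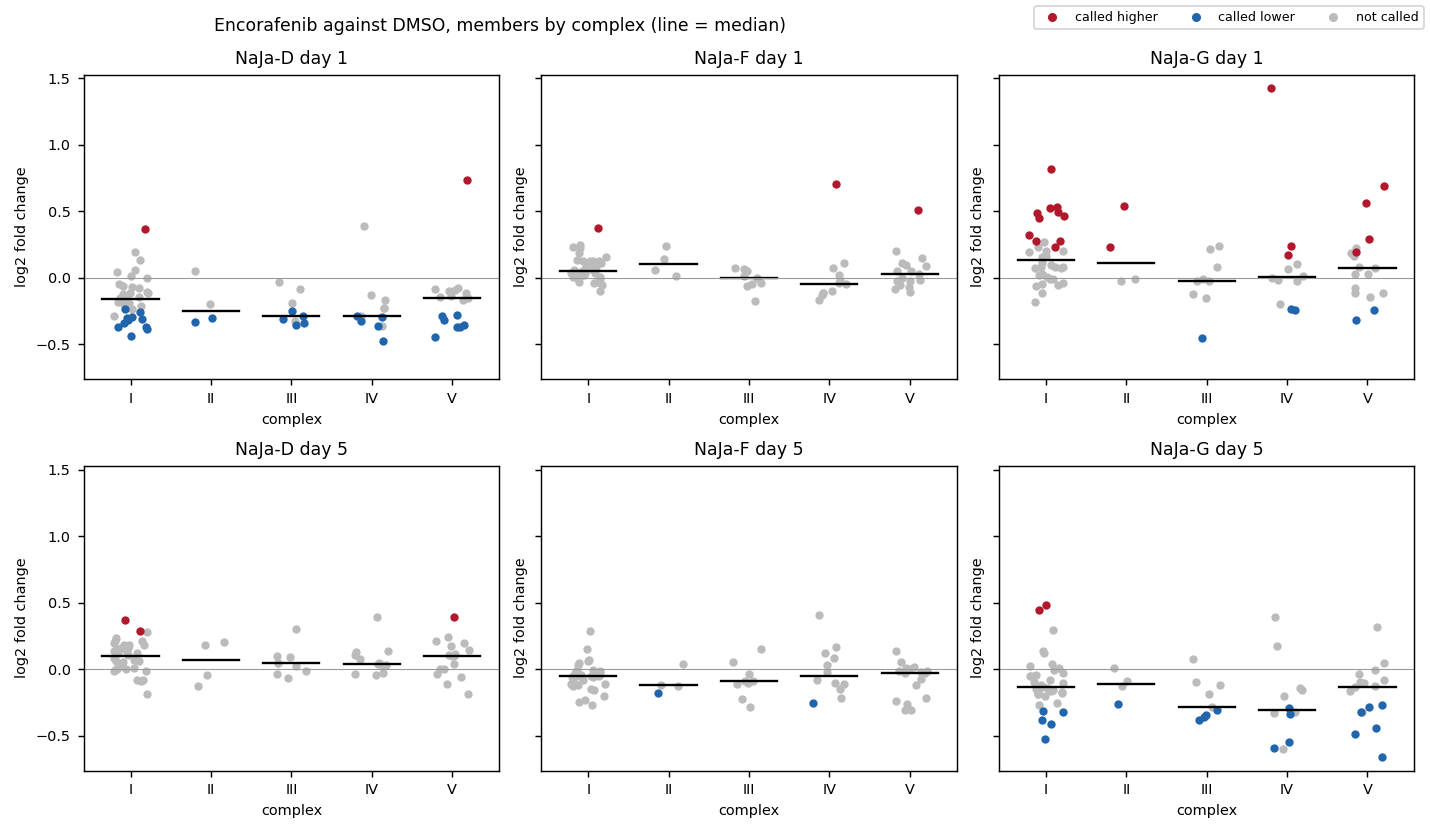
Log2 fold change, encorafenib against DMSO (y axis), of each member (points) by complex (x axis) in the 6 comparisons of line and day, with a line at the median of each complex. All 5 medians are below 0 in the panels of NaJa-D, day 1, and of NaJa-G, day 5, and that of complex I in NaJa-G at day 1 is 0.13.

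The differences between these responses were tested directly as interaction terms in the same fit. At day 1 the NaJa-G response was above the NaJa-D response for 34 members and below it for none, with 36.4% of all genes called in either direction and a median difference of 0.32, against 0.03 over all genes. Complex I contributed 20 of the 34, including Ndufc1 (0.60), Ndufa2 (0.57), Ndufb11 (0.56) and Ndufa11 (0.50). Complex II contributed Sdha (0.32), Sdhb (0.43) and Sdhc (0.49), complex III 2 members, complex IV 5 and complex V 4, among them Atp5e (0.64 ± 0.14, adjusted p = 0.00034, limma). Sdhb, the iron-sulfur subunit, is an example: it was at 95.9, 90.7 and 93.3 CPM in NaJa-D DMSO and at 78.5, 76.3 and 89.9 CPM with encorafenib, whereas in NaJa-G it was at 96.3, 80.1 and 83.4 CPM and at 100, 99.8 and 104 CPM. The groups did not overlap in either line, but only the increase in NaJa-G was called (0.23 ± 0.06, adjusted p = 0.002, limma).

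This count depended on single libraries. It was 59 without NaJa-D encorafenib day 1 replicate 3, 17 and 21 without replicates 1 and 2 of that group, 21 without NaJa-G DMSO day 1 replicate 2, 56 without the 4 libraries set apart, 15 with scaling by library size (14 above and 1 below), and 1 in a fit on these 4 groups alone. Between NaJa-F and NaJa-D, 6 members differed, all above in NaJa-F (Ndufa5, Ndufv2, Sdha, Sdhb, Uqcrc2 and Atp5c1), with 8.79% of all genes called and a median difference of 0.25; 73 of 78 estimates were positive. The count was 45 without replicate 3 of NaJa-D with encorafenib, 43 without the 4 libraries set apart, and 3 without any of 8 other libraries of these groups, which are NaJa-D DMSO replicate 3, NaJa-D encorafenib replicates 1 and 2, NaJa-F DMSO replicates 1 and 3 and NaJa-F encorafenib replicates 1, 2 and 3. Between NaJa-G and NaJa-F 2 members differed, Ndufc1 (0.38) and Ndufv3 (0.45), both above in NaJa-G, where 33.5% of all genes were called. That count was 4 without NaJa-G DMSO replicate 1 and 1 without any of 8 other libraries (NaJa-F DMSO replicate 1, NaJa-F encorafenib replicates 1, 2 and 3, NaJa-G DMSO replicates 2 and 3 and NaJa-G encorafenib replicates 1 and 3), 5 above and 1 below after removal of the GC and length trend, and 2 above and 1 below with scaling by library size. These 3 contrasts share libraries.

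Between the days, the NaJa-G response at day 5 was below that at day 1 for 18 members and above it for none, with 31.7% of all genes called and a median difference of -0.27. Complex I contributed 9, complex II 2, complex IV 4 and complex V 3. Cox7a1 (-1.03), Ndufc1 (-0.67), Ndufa6 (-0.65) and Sdhc (-0.54) had the largest differences of the 18. The count ran from 5 without NaJa-G DMSO day 5 replicate 3 to 29 without NaJa-G DMSO day 1 replicate 1, was 9 without replicate 2 of the day 1 controls, 11 without their replicate 3 or without replicate 1 or 3 of the treated day 1 libraries, and was 35 without the 4 libraries set apart. Those 4 libraries are of other lines and enter this comparison only through the shared fit. In NaJa-D the response differed between days for Sdhb alone (0.38), with 7.29% of all genes called, although the median difference was 0.28 and 74 of 78 estimates were positive; 50 members were called without encorafenib day 1 replicate 3, 25 without the 4 libraries set apart and between 0 and 8 without any other library. In NaJa-F no member differed between days by limma, where 5.88% of all genes were called; edgeR and DESeq2 called 0 as well, 2 passed an adjusted p below 0.05 and 11 an unadjusted p below 0.05.

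The lines also differed without drug. In DMSO, over both days, 18 members were called higher and 16 lower in NaJa-F than in NaJa-D. Over all genes, 32.6% were called higher and 29% lower, so members were called less often than genes in general in both directions. In NaJa-G against NaJa-D, 31 were higher and 17 lower, where the shares over all genes were 33.3% and 34.1%. In NaJa-G against NaJa-F, 26 were higher and 3 lower, where they were 25.2% and 29.2%. In both comparisons of NaJa-G, the share of members called higher was above that of all genes. The share called lower was below it in both. The comparisons share the libraries of a line.

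Complexes differed in direction between lines. In NaJa-G against NaJa-D, complex I had 17 higher and 5 lower calls (median 0.17) and complex V 7 and 2 (median 0.11), whereas complex IV had 3 higher and 6 lower (median -0.17) and complex III 2 and 4 (median -0.10). In NaJa-F against NaJa-D, complex I had 10 higher and 5 lower (median 0.04), complex III 2 and 5 (median -0.24), complex IV 1 and 5 (median -0.25) and complex V 3 and 1 (median 0.01). The difference between complexes is a description of counts. Scaling by library size alone raised the median of all genes by more than 0.1 in both comparisons, to 0.14 and 0.13, and gave 35 higher and 12 lower calls for NaJa-F and 42 and 9 for NaJa-G, so the split depends on the scaling.

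Cox6a1, the broadly expressed isoform of complex IV subunit 6a, had the largest line difference. In DMSO it was at 382 to 564 CPM in the 6 NaJa-D libraries, at 217 to 299 CPM in the 6 of NaJa-F and at 170 to 231 CPM in the 5 of NaJa-G. NaJa-D did not overlap the others, while NaJa-F and NaJa-G overlapped in part. Relative to NaJa-D it was lower by a log2 fold change of -0.88 ± 0.09 in NaJa-F (adjusted p = 1.3e-09, limma) and of -1.25 ± 0.10 in NaJa-G (adjusted p = 1.5e-12). NaJa-G was also below NaJa-F (-0.37 ± 0.09, adjusted p = 0.0011, limma). Its promoter, printed above, carries NRF1 and ETS matches.

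Atp5j2, the f subunit of ATP synthase, was at 176 to 258 CPM in NaJa-D, 120 to 154 CPM in NaJa-F and 116 to 149 CPM in NaJa-G, all in DMSO. NaJa-D lay above both others without overlap (-0.71 ± 0.05, adjusted p = 5.1e-14, and -0.75 ± 0.05, adjusted p = 3.4e-14, limma), and NaJa-G and NaJa-F did not differ beyond their spread (-0.04 ± 0.05, adjusted p = 0.49). Ndufa4, a member by its symbol of complex I although it is now placed in complex IV, was at 221 to 275 CPM in NaJa-D, 147 to 166 CPM in NaJa-F and 179 to 205 CPM in NaJa-G. Its 3 lines did not overlap, with NaJa-F lowest (-0.70 ± 0.05 against NaJa-D, adjusted p = 3.7e-13, limma). Counting it in complex IV changed no median in direction.

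Uqcrb, a ubiquinone-binding subunit of complex III, went the other way, at 27.1 to 35.1 CPM in NaJa-D, 42.1 to 49.7 CPM in NaJa-F and 44.4 to 57.5 CPM in NaJa-G (0.56 ± 0.05, adjusted p = 1.3e-11, and 0.71 ± 0.05, adjusted p = 1.1e-13, against NaJa-D, limma). Atp5f1, the b subunit of the peripheral stalk of ATP synthase, was at 132 to 169, 190 to 222 and 223 to 269 CPM in the same order, with NaJa-F and NaJa-G just short of overlap (0.46 ± 0.04 and 0.66 ± 0.05, adjusted p = 2.8e-10 and 2.7e-13, limma). The ranges of Uqcrb overlapped between NaJa-F and NaJa-G, and the difference between them was 0.15 ± 0.05 (adjusted p = 0.0045, limma). Members called higher in all 3 line comparisons were Uqcrb, Atp5f1, Ndufb5, Ndufb10 and Ndufc1, and the only member called lower in all 3 was Cox6a1. The Rieske iron-sulfur protein Uqcrfs1 was higher in both NaJa-F (0.47) and NaJa-G (0.46) than in NaJa-D, while its complex III partners Uqcrc2 (-0.56 and -0.40) and Cyc1 (-0.24 and -0.25) were lower.

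Isoforms of the same subunit, and the related gene Cox7a2l, were compared within the measured genes. Of the genes with Cox7a symbols, Cox7a2 was lower in NaJa-F (-0.34) and NaJa-G (-0.28) than in NaJa-D. Cox7a1 was lower as well (-0.85 and -0.52), whereas Cox7a2l was higher (0.36 and 0.49). With encorafenib at day 1 in NaJa-D, Cox7a2 was called lower (-0.33) and Cox7a2l was not called (-0.13 ± 0.09, adjusted p = 0.20, limma). The 3 genes for the c-ring subunit, Atp5g1, Atp5g2 and Atp5g3, were each called lower after 1 day of drug in NaJa-D (-0.37, -0.37 and -0.31). By day 5 in NaJa-G, Atp5g2 (-0.45) and Atp5g3 (-0.48) were called lower and Atp5g1 was not (-0.14 ± 0.10, adjusted p = 0.26, limma).

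**Figure D4:**
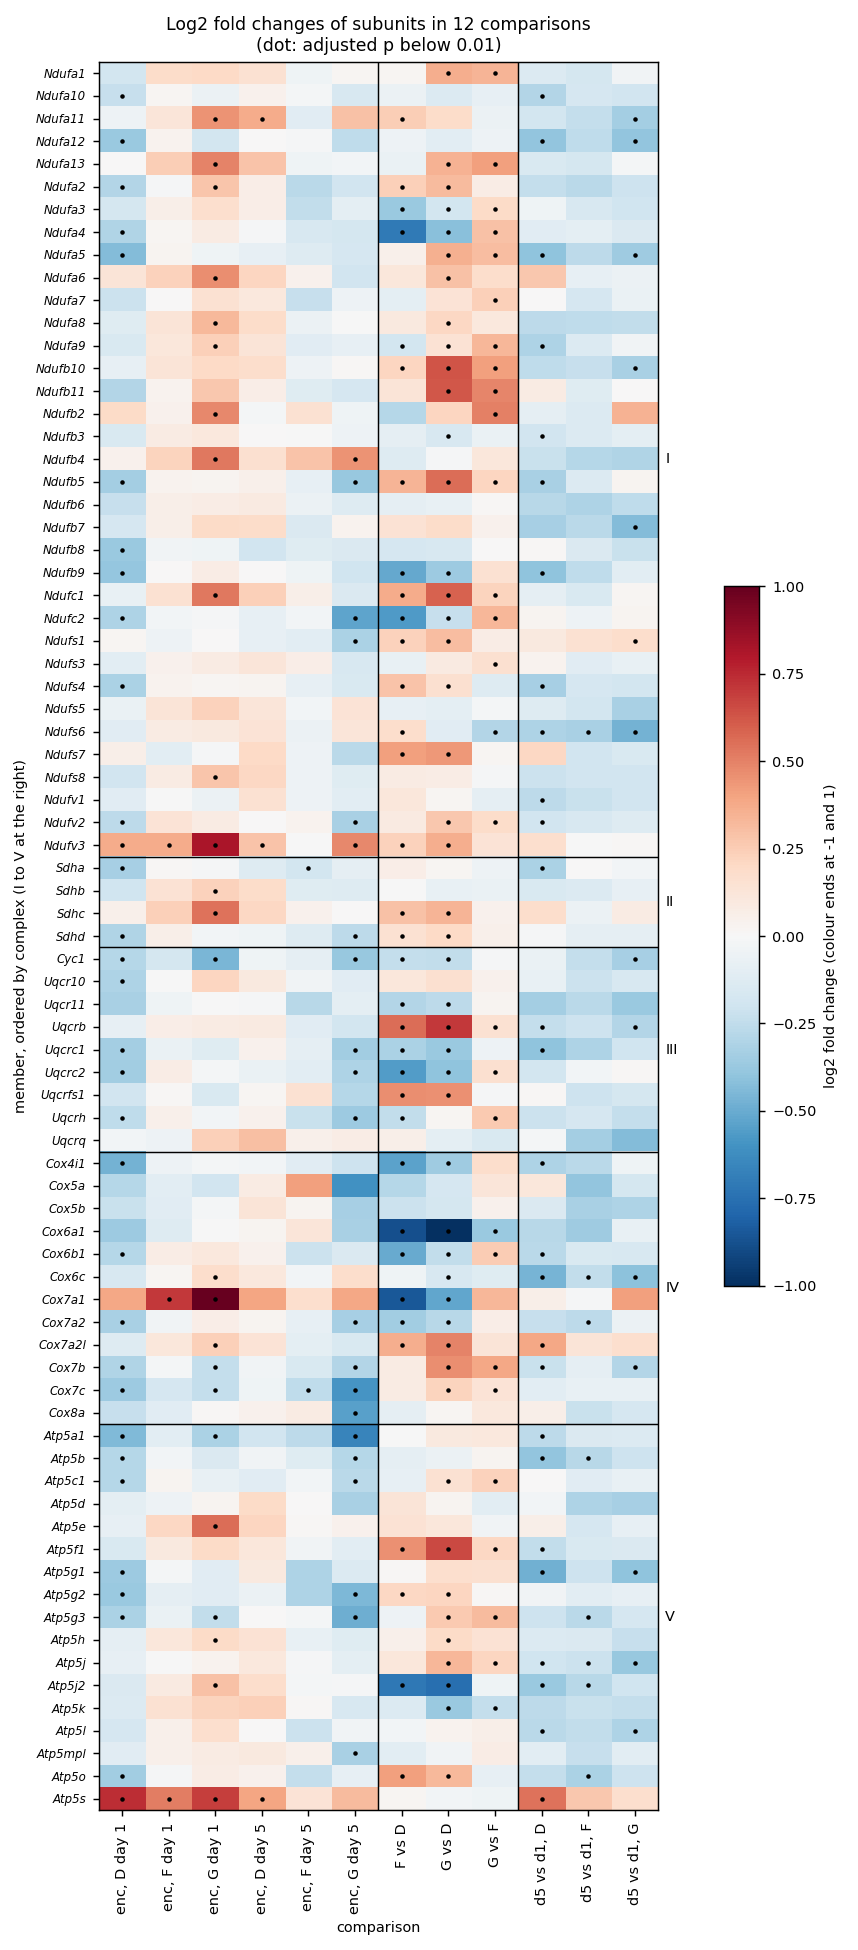
Log2 fold changes of the members (y axis, ordered by complex, with 1 of the 78 not drawn) in 12 comparisons (x axis: 6 of encorafenib against DMSO, 3 between lines and 3 between days in DMSO), with a dot where the adjusted p was below 0.01. The line comparisons hold calls in both directions, with 31 higher and 17 lower over all 78 members for NaJa-G against NaJa-D, and the day comparisons hold mostly lower ones.

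The controls taken after 5 days were also compared with those taken after 1 day, and most member estimates were negative. The shares of members called lower, in the order D, F, G, were 32.1%, 10.3% and 16.7%, and the last is near that of all genes. In NaJa-D, 25 members were called lower and 2 higher at day 5 than at day 1, where 15.3% of all genes were called lower and 13.7% higher, and the median was -0.19. In NaJa-F, 8 were lower and none higher, where the shares over all genes were 7.01% and 9.73%, and 74 of 78 estimates were negative (median -0.18). In NaJa-G, 13 were lower and 1 higher, where the shares were 16.8% and 17.2% (median -0.16).

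Ndufs6, a zinc-binding supernumerary subunit of complex I, Cox6c of complex IV and Atp5j, coupling factor 6 of ATP synthase, were called lower in all 3 lines and are named after their values were seen. Ndufs6 went from 45.5, 46.6 and 45.4 CPM to 35.9, 36.6 and 38.8 CPM in NaJa-D, from 54.5, 52.9 and 49.3 CPM to 41.8, 41.4 and 41.8 CPM in NaJa-F and from 47.3, 44.6 and 43.0 CPM to 29.5 and 35.2 CPM in NaJa-G. The days did not overlap in any line (-0.31 ± 0.07, -0.33 ± 0.07 and -0.48 ± 0.08, adjusted p = 0.0013, 0.00076 and 1.6e-05, limma). Higher at day 5 were Cox7a2l (0.39) and Atp5s (0.54) in NaJa-D and the core subunit Ndufs1 (0.18) in NaJa-G.

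These counts moved with the libraries used. Without NaJa-D DMSO day 1 replicate 3, 17 members were called in NaJa-D, and without NaJa-D DMSO day 5 replicate 1, 15; scaling by library size, which moved the median of all genes to 0.18, gave 9 higher and 7 lower. In NaJa-F the count was 3, 2 and 5 without DMSO day 1 replicates 1, 2 and 3 and 4 without DMSO day 5 replicate 2 or 3, and it was 28 without the 4 libraries set apart and 1 higher against 5 lower with scaling by library size. In NaJa-G it was 6 without DMSO day 1 replicate 1 or day 5 replicate 1, and 24 without the 4 libraries set apart. Those 4 libraries are in neither the NaJa-F nor the NaJa-G day comparison and enter them only through the shared fit.

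The 13 subunits encoded in mitochondrial DNA, which are partners of the members in complexes I, III, IV and V, took 1.14% to 7.90% of counts and varied far more. Their summed level was 78316 ± 10319 CPM at day 1 and 23897 ± 1588 CPM at day 5 in NaJa-D DMSO (SD, n = 3 each), and 42008 ± 4562 CPM (n = 3) and 13440 ± 3734 CPM (n = 2) in NaJa-G. All 13 were called lower at day 5 in NaJa-D (median -1.52) and in NaJa-G (median -1.64), and 12 of 13 in NaJa-F (median -0.85). In the same order, 15.3%, 16.8% and 7.01% of all genes were called lower. All 13 were also lower in NaJa-F (median -0.87) and in NaJa-G (median -0.89) than in NaJa-D, where 29% and 34.1% of all genes were called lower.

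With encorafenib at day 1, 7 of the 13 were called lower in NaJa-D (median -0.43), 4 in NaJa-G (median -0.33) and none in NaJa-F. In the same order, 21.2%, 28.7% and 12% of all genes were called lower, so the share in NaJa-G was near that of all genes. At day 5 in NaJa-G, 20 of 78 nuclear members were lower (25.6%, against 24.7% of all genes) and 2 of complex I, Ndufv3 and Ndufb4, higher. There, 28.5% of all genes were called higher, and of the 13 mitochondrially encoded subunits 6 were called higher and none lower (median 0.79). mt-Nd5 of complex I (1.10 ± 0.13, adjusted p = 4.2e-08, limma), mt-Cytb of complex III (0.81 ± 0.14, adjusted p = 9.8e-06) and mt-Co1 of complex IV (0.80 ± 0.14, adjusted p = 1.4e-05) were among them.

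Genes that build or control these complexes were taken from lists beside the members. Of 57 assembly factors 52 were measured; with encorafenib at day 1, NaJa-D had 2 higher and 9 lower calls, NaJa-F 2 and 3, and NaJa-G 14 and 11, and at day 5 the counts were 3 and 3, 1 and 2, and 7 and 10. Each of these shares was below that of all genes in the same comparison, as in NaJa-G at day 1, with 26.9% and 21.2% against 35.3% and 28.7%. Atpaf2, an assembly factor of the ATP synthase F1 head, was lower at day 1 in all 3 lines (-0.26, -0.22 and -0.66, in the order D, F, G), as was Lrpprc, which stabilises mitochondrial mRNAs (-0.24, -0.23 and -0.68), while Ndufaf7, a methyltransferase for complex I assembly, was higher (0.22, 0.19 and 0.28). Ndufaf2 was lower at day 5 in all 3 (-0.39, -0.37 and -0.46).

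Of 17 regulators of respiratory genes 15 were measured. At day 1 NaJa-D had 2 higher and 5 lower calls, NaJa-F 2 and 4, and NaJa-G none and 7. Over all genes the day 1 shares called higher and lower were 23.7% and 21.2%, 17.5% and 12%, and 35.3% and 28.7%. Myc (-0.49, -0.35 and -1.23) and Polrmt, the mitochondrial RNA polymerase (-0.41, -0.37 and -0.71), were lower in all 3 lines. The coactivator Ppargc1a was called higher in NaJa-D (0.32 ± 0.07, adjusted p = 0.00041, limma) and NaJa-F (0.49 ± 0.07, adjusted p = 3.1e-06) and not called in NaJa-G (-0.07 ± 0.08, adjusted p = 0.47). Nrf1 and Tfam were called lower in NaJa-D (-0.28 and -0.35) and in NaJa-G (-0.46 and -0.71). At day 5 NaJa-D had no higher and 3 lower calls, NaJa-F 2 and 1, and NaJa-G none and 7. Over all genes the day 5 shares were 18.3% and 14.7%, 9.7% and 8.5%, and 28.5% and 24.7%.

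Of complex V genes whose symbols fall outside the rule, the inhibitor Atpif1 and the small subunit Usmg5 were called in none of the encorafenib comparisons. Ndufab1, the acyl carrier protein bound to complex I, was called lower in NaJa-G at day 1 (-0.68) and day 5 (-0.45). All 20 cell cycle genes listed were called lower with encorafenib at day 1 in NaJa-D and NaJa-G and 10 of 20 in NaJa-F. In the same order, 21.2%, 28.7% and 12% of all genes were called lower. The part of the cell cycle genes in the member levels was not tested.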

How the data were processed

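RNA-seq was performed on total RNA of the 34 libraries. Per the submitters' processing notes, reads were trimmed with Trimmomatic 0.39 and aligned with STAR 2.5.2b to GRCm38 (mm10); the counting program and strand setting are not given in the sources used here. The deposited values are raw counts per Ensembl gene in 1 table, which the authors had already reduced to 14107 genes whose summed counts are at least 360. Symbols were matched for 14064 of them. Totals of 46007050 to 80121299 counts per library set the precision of each value, and replicates differed by more than sampling noise (chi-square over degrees of freedom 3.30 to 85.0).

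Counts were scaled by TMM factors (0.876 to 1.07) and fitted by limma-voom as 1 linear model holding 12 group means (R 4.3.3, limma 3.58.1, edgeR 4.0.16 and DESeq2 1.42.0). Comparisons were contrasts of these means, and calls required p below 0.01 after Benjamini-Hochberg adjustment across the 14107 genes. Fold changes are given as log2 ± SE and levels as CPM. Tests were two-sided. The script was tested on simulated data. The members and lists were chosen with earlier results of these data known. Members were named by rule: the 2 highest per complex, the 3 highest and 3 lowest calls of each drug and line comparison above 2 log2 CPM, isoform sets and complex II, and of the other lists genes called in all 3 lines. Further members (Cox6c, Atp5j, Ndufa6, Ndufa9, Ndufc1, Ndufb5, Ndufs1, Ndufs8, Ndufv2, Uqcrc1, Uqcrc2, Uqcrh, Atp5c1, Ppargc1a, Nrf1, Tfam, Ndufab1, Atpif1, Usmg5 and the mitochondrial genes) were named after their values were seen. The values of 1 member are not reported here. Sequence matches to other genes were searched with blastn 2.17.0 in GENCODE vM21 transcripts at 95% identity over at least 100 bases.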

Additional observations from a re-analysis of the deposited data

Results flagged for a closer look

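Differences between responses, each tested as an interaction term in limma, met the rule for a closer look. At day 1, 6 members passed between NaJa-F and NaJa-D, where 8.79% of all genes passed. Among those named were Ndufa5 (0.46), Sdha (0.342) and Sdhb (0.34), each with the larger log2 fold change in NaJa-F. For NaJa-G against NaJa-D at day 1, 34 members passed, where 36.4% of all genes passed. In complex I these were Ndufa2 (0.574), Ndufb11 (0.557), Ndufa11 (0.498), Ndufa13 (0.495), Ndufb4 (0.483), Ndufv3 (0.449), Ndufa5 (0.391) and Ndufa4 (0.388) among those named. In complex II they were Sdhc (0.488), Sdhb (0.429) and Sdha (0.318), and in complex III Uqcr10 (0.528). In complex IV they were Cox7a1 (1.04), Cox4i1 (0.453), Cox6b1 (0.392) and Cox7a2 (0.391), and in complex V Atp5e (0.641), Atp5j2 (0.44) and Atp5f1 (0.341). For NaJa-G against NaJa-F, 2 members passed, of which Ndufv3 (0.447) was named by rule, where 33.5% of all genes passed.

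Between days, 1 member passed in NaJa-D, Sdhb (0.38), where 7.29% of all genes passed. In NaJa-G, where 31.7% of all genes passed, 18 members did, all with a lower log2 fold change at day 5 than at day 1. Those named were Cox7a1 (-1.03), Sdhc (-0.537), Atp5e (-0.514), Ndufa2 (-0.467), Cox7a2 (-0.402), Cox7a2l (-0.396), Sdhb (-0.36) and Cox7c (-0.349). The counts for NaJa-D depended on which of its treated day 1 libraries were kept. Without replicate 3, 45 members differed between NaJa-F and NaJa-D, 59 between NaJa-G and NaJa-D and 50 between days in NaJa-D. The counts in the same order were 3, 17 and 0 without replicate 1, and 3, 21 and 0 without replicate 2.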

How the results depend on the processing

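Counts of members called were recomputed under 11 alternatives and with each of the 34 libraries left out. edgeR, limma-trend, the low-count filter (which removed no gene) and the replicate block kept each count within 1.5 times. Same-numbered replicates did not deviate together (correlations from -0.27 to 0.21), and with the replicate block the counts were 31 (NaJa-D day 1), 23 (NaJa-G day 1) and 20 (NaJa-G day 5). DESeq2 moved the response of NaJa-F minus NaJa-D to 13 and of day 5 minus day 1 in NaJa-D to 5, and RLE factors moved NaJa-F day 5 to 0. Scaling by library size gave 7 (NaJa-D day 5), 4 (NaJa-F day 5), 16 (time in NaJa-D), 3 (NaJa-F minus NaJa-D), 15 (NaJa-G minus NaJa-D), 2 and 28 (day 5 minus day 1 in NaJa-D and NaJa-G). An adjusted p below 0.05 gave 8 (NaJa-F day 1), 12 and 10 (NaJa-D and NaJa-F day 5), 42, 29 and 25 (time, in the order D, F, G), 23 and 9 (NaJa-F minus NaJa-D, NaJa-G minus NaJa-F), and 30, 2 and 37 (day 5 minus day 1). A log2 fold change of at least 0.5 left 1 (NaJa-D day 1), 7 (NaJa-G day 1), 0, 0 and 4 (day 5), 10, 9 and 1 (lines), 1, 0 and 0 (time), 0, 6 and 0 (responses between lines) and 0 and 6 (day 5 minus day 1, NaJa-D and NaJa-G). Removing the GC and length trend gave 20 (NaJa-D day 1), 5 (NaJa-D day 5), 3 and 9 (time in NaJa-F and NaJa-G), 22 and 6 (NaJa-G minus NaJa-D and minus NaJa-F) and 0 (day 5 minus day 1 in NaJa-D), and turned Cox6b1 (0.083), Ndufa2 (0.15) and Uqcr10 (0.12) in NaJa-D at day 1. Fits on only the compared groups gave 6, 7 and 16 (day 1), 5 (NaJa-F day 5), 35 and 0 (time in NaJa-F and NaJa-G), 3 and 1 (NaJa-F and NaJa-G minus NaJa-D), and 0 and 4 (day 5 minus day 1 in NaJa-D and NaJa-F). Without the 4 libraries set apart the counts were 57 (NaJa-D day 1), 1 and 34 (NaJa-D and NaJa-G day 5), 28 and 24 (time in NaJa-F and NaJa-G), 43, 56 and 4 (responses between lines) and 25 and 35 (day 5 minus day 1 in NaJa-D and NaJa-G). The comparisons within NaJa-G, NaJa-G minus NaJa-F and time in NaJa-F hold none of those 4 libraries. Leaving out 1 library gave 17 to 56, 2 to 3 and 16 to 28 (day 1, in the order NaJa-D, NaJa-F, NaJa-G), 0 to 3, 1 to 3 and 14 to 24 (day 5), 28 to 35, 42 to 48 and 25 to 30 (lines), 15 to 26, 2 to 6 and 6 to 16 (time), 3 to 45, 17 to 59 and 1 to 4 (responses between lines) and 0 to 50, 0 to 0 and 5 to 29 (day 5 minus day 1). Where a group was left with 1 library, it was assumed to vary like the others. The cause was not tested for any of these, beyond the fewer libraries or the stricter or looser limit used. Of 178 calls of named members, 170 held with edgeR, 171 with DESeq2, 147 with library size and 125 after removal of the GC and length trend.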

Other observations

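The list of electron carriers and other dehydrogenases moved in both directions with encorafenib. Its 21 genes include Sqor, Dhodh and the electron transfer flavoprotein genes, and also cytochrome c and the Coq and Pdss genes of ubiquinone synthesis. NaJa-D had 9 higher and 8 lower calls at day 1, NaJa-F 5 and 5, and NaJa-G 10 and 9. At day 5 the counts were 8 and 3, 1 and 0, and 5 and 6. Over all genes, the day 1 shares called higher and lower were 23.7% and 21.2%, 17.5% and 12%, and 35.3% and 28.7%. At day 5 they were 18.3% and 14.7%, 9.7% and 8.5%, and 28.5% and 24.7%. Sqor, which oxidises sulfide, was higher in all 6 comparisons (0.78, 0.99 and 1.69 at day 1 in the order D, F, G, and 0.44, 0.47 and 0.58 at day 5). The electron transfer flavoprotein genes Etfa (0.31, 0.33 and 0.59), Etfb (0.40, 0.52 and 0.81) and Etfdh (0.41, 0.55 and 0.74), which serve fatty acid oxidation, were higher at day 1 in the same order, as was the carnitine carrier Slc25a20 (0.39, 0.50 and 0.98). Dhodh, of pyrimidine synthesis, was lower (-0.38, -0.30 and -0.96).

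Mitochondrial ribosomal proteins were lower in part. Of 77, 36 were called lower in NaJa-D at day 1, 11 in NaJa-F and 44 in NaJa-G, and 2, 0 and 3 higher. At day 5 the counts were 5, 4 and 39 lower and 2, 1 and 0 higher. Over all genes the shares called lower were 21.2%, 12% and 28.7% at day 1 and 14.7%, 8.5% and 24.7% at day 5. The shares lower in NaJa-D and in NaJa-F at day 5 were thus below those of all genes. Of 16 carriers and import genes, 9, 6 and 11 were lower at day 1 and 1 higher in each line, and the counts of lower calls were 4, 1 and 12 at day 5. They included the chaperonin Hspd1 (-0.65, -0.37 and -1.51 at day 1) and the import channel Tomm40 (-0.55, -0.31 and -1.01). Of 19 genes of the TCA cycle, 6, 1 and 5 were lower and 1, 2 and 6 higher at day 1, and 1, 1 and 7 lower and 1, 1 and 1 higher at day 5; Dlst was lower in all 6 comparisons.

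Cox5a stood at 84.5 CPM in NaJa-D DMSO day 5 replicate 1, against 46.0 and 43.5 CPM in its group, at 83.9 CPM in NaJa-D encorafenib day 5 replicate 2, against 50.5 and 47.0 CPM, and at 77.0 CPM in NaJa-F encorafenib day 5 replicate 2, against 33.0 CPM.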
